A study of Mus musculus with 8 samples.

Results

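Many cathepsins are proteases of the lysosome, and 10 cathepsins (Ctsa, Ctsb, Ctsc, Ctsd, Ctsf, Ctsh, Ctsk, Ctsl, Ctss and Ctsz) were followed here at the mRNA level in murine bone-marrow-derived macrophages (BMDMs). They were chosen by gene symbol, and all 10 were found among the 55359 listed genes and passed the filter on low values that left 16309 genes for testing. RNA was sequenced in 4 groups with 2 samples each. Ctrl were untreated naïve Mϕ, LPS were naïve Mϕ stimulated for 6 h with LPS (100 ng/mL) and IFNγ (100 U/mL), Eff were efferocytic Mϕ that had been co-cultured for 16 h with apoptotic cells, and LPSEff were efferocytic Mϕ stimulated in the same way after a wash. The BMDMs were grown with M-CSF and GM-CSF from the marrow of C57BL/6 mice, adults of either sex, so that every group, the controls included, carries both growth factors. The apoptotic cells were NIH-3T3 CA fibroblasts, a mouse line with a caspase-8 domain that a dimerizer (10 nM) switches on, added at 5 per Mϕ. The dimerizer was kept in the medium during the co-culture, and it is listed for Eff and LPSEff but not for Ctrl or LPS. Efferocytic and naïve groups thus differ in this compound too, and its own effect on the mRNAs was not tested. CD45+ cells were then isolated on magnetic beads. The sources used here do not say whether the 2 samples of a group came from separate animals or cultures, so that p-values measure the spread between these samples, which may be technical.

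Cathepsins are made as inactive precursors, carried to the lysosome largely by mannose 6-phosphate receptors and activated by cleavage at low pH. Most are cysteine proteases of the papain type, Ctsd is an aspartic protease and Ctsa a serine carboxypeptidase. In Mϕ they break down phagocytosed material, trim the invariant chain and antigens for MHC class II, process endosomal Toll-like receptors and, when secreted, degrade matrix. Efferocytosis, the uptake of apoptotic cells, delivers its cargo to the same compartment, and the comparisons ask how LPS/IFNγ and efferocytosis, alone or together, go along with the mRNA levels of these enzymes.

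Genes of the lysosome are known targets of TFEB, TFE3 and MITF, which bind E-boxes, and several cathepsins are known to respond to interferon. Since some members were called with LPS/IFNγ and others were not, their promoters (250 bases before to 50 after the start, RefSeq, GRCm38.p6) were searched for a few short motifs. The promoters of 8 members were in the table, with 9 starts in all (Ctsa has a pair of them). Ctsb and Ctsh were not in it. Positions below come from an exact match of the windows to GRCm39. The starts are those of the RefSeq promoters, and most lie inside the gene positions given further below, which come from GENCODE. Windows before a start can thus lie within the annotated gene, as for Ctsd, Ctsl and Ctss. The E-box CACGTG, which reads the same on both strands, was found in 4 of these members. Within it, Ctsa (second start) and Ctsd had the longer palindrome TCACGTGA. Of all 32851 promoters of the same length in the table, 7.15% held CACGTG and 0.974% held TCACGTGA. The windows below show the E-boxes in capitals, 5′ to 3′ on the strand of the gene:
Ctsa, 13 bases before the second start, chr2:164675672-164675695, plus strand: gcaaactgTCACGTGAtgcagatg
Ctsa, 4 bases after the second start, chr2:164675689-164675712, plus strand: gcagatgcTCACGTGAccagagct
Ctsd, 99 bases before the start, chr7:141941648-141941671, minus strand: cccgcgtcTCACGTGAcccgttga
Ctsl, 236 bases before the start, chr13:64518557-64518578, minus strand: ttagaagcCACGTGctgatcta
Ctsf, 79 bases before the start, chr19:4905106-4905127, plus strand: ccgtggtcCACGTGcctcgcgt

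Ctsd held a further CACGTG 245 bases before its start. The windows from Ctsc and Ctss hold the motifs of interferon and myeloid factors. The core of the interferon-stimulated response element (GAAANNGAA, both strands searched) was in Ctss only among the 8 members and in 8.56% of all promoters. The gamma-activated site (TTCNNNGAA, the same on both strands) was in Ctsc only and in 8.30% of all. The PU.1 site GAGGAAGT stood in both on the minus strand, so that the windows show its complement in capitals, and was in 3.20% of all promoters. None of these motifs was in the windows of Ctsz, Ctsk or the first start of Ctsa. A match is a run of letters and was not tested as a binding site. The last bases of the first Ctss window are the first of the second:
Ctsc, interferon motif 236 bases before the start, chr7:87927049-87927073, plus strand: ctttggcgTTCCTTGAAaggcagag
Ctsc, PU.1 motif 151 bases before the start, chr7:87927134-87927157, plus strand: actaactaACTTCCTCaggccacc
Ctss, interferon motif 21 bases before the start, chr3:95434068-95434092, plus strand: ctttaaatGAAACCGAAatgaaagt
Ctss, PU.1 motif 2 bases before the start, chr3:95434087-95434110, plus strand: gaaagttcACTTCCTCattgtgga

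The deposited values are normalized counts, that is reads per gene divided by a size factor per sample, and the reads recovered from them ranged from 3481288 to 12020918 per sample. A gene with 3 reads, taken as the floor of detection, would show 1.73 to 5.71 normalized counts. The 8 Mϕ markers were all expressed, with sums of 87544 to 141156 normalized counts, of which Lyz2 alone held 54327 to 103975. Averaged over naïve and efferocytic Mϕ, 4 of the 8 were called higher after LPS/IFNγ, where 17.9% of all tested genes were. The response genes Nos2, Cxcl9, Cxcl10 and Il6, taken as a check of the labels, were all called higher after LPS/IFNγ (log2 changes of 8.71 to 10.17). Markers of T or NK cells and of B cells summed to at most 25.9 normalized counts in any sample. Most fibroblast markers were higher in the efferocytic samples, and they are given below beside the results they accompany. Fewer cells of a type and less RNA per cell cannot be told apart in such bulk samples.

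The 10 members together made up 1.43% to 2.16% of all normalized counts of a sample. Compared per kilobase of the canonical transcript, the family was dominated by Ctsd, the aspartic protease (41.4% to 55.8% of the family's per-kilobase total), followed by Ctss, the cysteine protease of antigen-presenting cells (18.2% to 29.2%), and Ctsb, a broad lysosomal cysteine protease (9.54% to 12.6%). These 3 kept the first 3 ranks in all 4 groups, and the samples of neighbours among them did not overlap. Ctsk, the collagenolytic cathepsin of osteoclasts, and Ctsf, an invariant chain protease of Mϕ, had ranks 9 and 10 everywhere. In Ctrl, per kilobase, the order was Ctsd (29318 ± 3604, mean ± SD, n = 2, as in all groups), Ctss (14294 ± 3414), Ctsb (7082 ± 401), Ctsz (2586 ± 284), Ctsa (1497 ± 63.8), Ctsc (1416 ± 119.5), Ctsh (1152 ± 291), Ctsl (774 ± 102), Ctsk (227 ± 46.7) and Ctsf (40.6 ± 1.36). Ctsa and Ctsc overlapped between their samples, as did Ctsc and Ctsh, so that the order within each of these pairs is not resolved. After LPS/IFNγ, Ctsc moved up to rank 4 at 4234 ± 223 per kilobase, where it overlapped with Ctsz (3902 ± 312). In Eff, Ctsl moved from rank 8 to rank 5 at 1411 ± 138, where it overlapped with Ctsa (1346 ± 156), and in LPSEff it stood at rank 6 with 1737 ± 581. With the union of all exons as length, Ctsb passed Ctss for rank 2 over all samples.

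**Figure D1:**
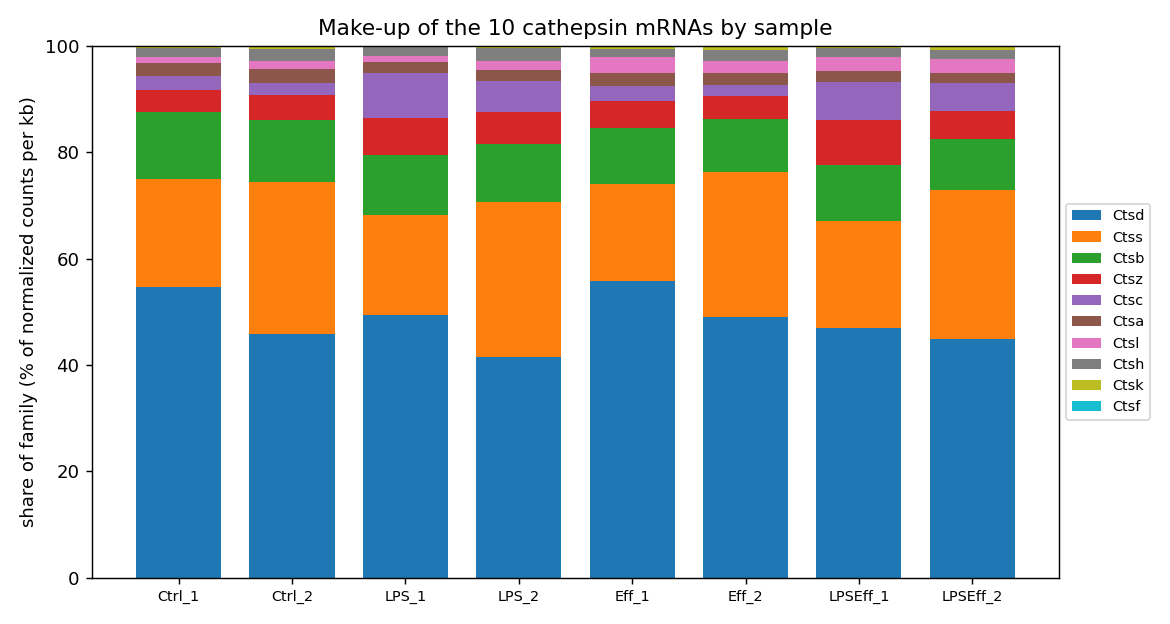
Stacked bars give the share of each of the 10 cathepsin mRNAs in the family total of each sample, in percent of normalized counts per kilobase of canonical transcript (vertical axis, from 0 to 100), with the 8 samples along the horizontal axis. Ctsd, Ctss and Ctsb fill most of every bar, the Ctsc band is widest in the 4 stimulated samples, and the Ctsl band is widest in the 4 efferocytic ones.

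LPS/IFNγ raised Ctsc 3.04-fold and Ctsz 1.58-fold, and no other cathepsin was called. Averaged over naïve and efferocytic Mϕ (4 stimulated against 4 unstimulated samples), these 2 of 10 members were called higher and 0 lower, where 17.9% of all tested genes were called higher and 36.5% in either direction (limma, Benjamini-Hochberg adjusted p under 0.05). The median log2 change of the members was 0.10, with a range of -0.26 to 1.60, against a median near 0 (0.00) over all tested genes. Ctsc and Ctsz were also the members whose 4 stimulated samples all lay above the 4 unstimulated ones, a pattern shown by 17% of tested genes.

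**Figure D2:**
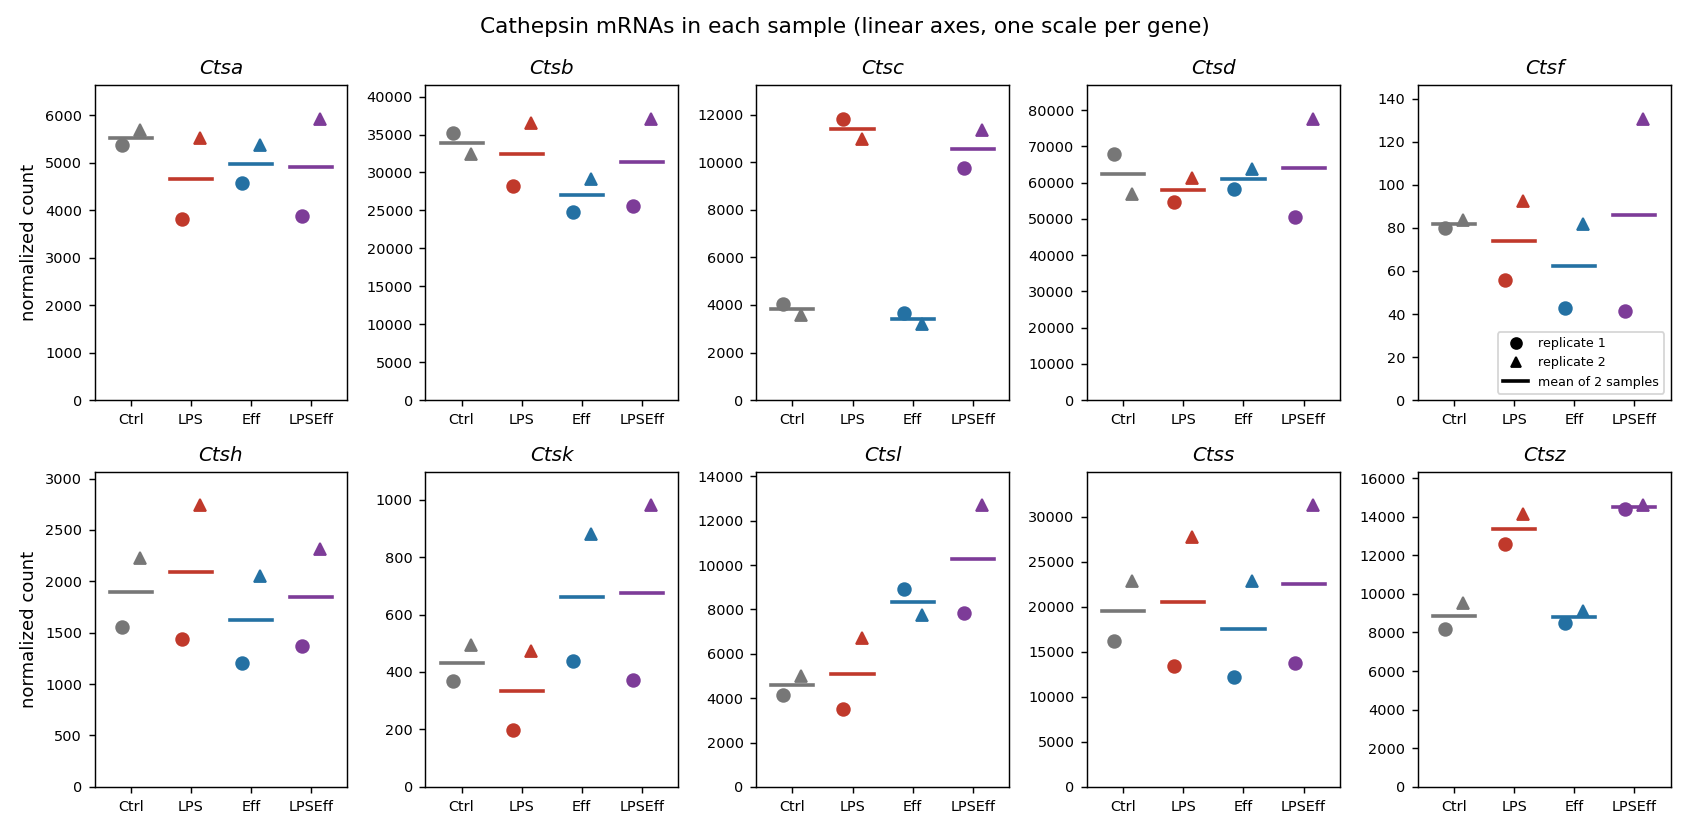
Each panel shows the normalized count (linear vertical axis from 0, a scale of its own per gene) of a cathepsin in the 4 groups, with circles for replicate 1, triangles for replicate 2 and a bar for the mean of both. Ctsc and Ctsz are high in LPS and LPSEff, Ctsl is high in Eff and LPSEff, and for Ctsh, Ctsk and Ctss the triangles lie above the circles in every group.

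Ctsc (ENSMUSG00000030560, GRCm39 chr7:87927092-87960096, plus strand) encodes cathepsin C, the dipeptidyl peptidase that activates granule serine proteases by removing an N-terminal dipeptide. Its normalized counts were 4043 and 3587 in Ctrl, 11832 and 10982 in LPS, 3648 and 3194 in Eff, with 9742 and 11367 in LPSEff. Every stimulated sample was thus far above every unstimulated one, and the groups did not overlap. In naïve Mϕ the log2 change with LPS/IFNγ was 1.58 (SE 0.19, limma adjusted p = 0.000976), 2.99-fold on the scale of log2(normalized count + 1) that applies to all changes here. In efferocytic Mϕ it was 1.62 (SE 0.19, adjusted p = 0.000933, 3.08-fold), and the average over both was 1.60 (SE 0.14, 95% interval 1.29 to 1.92, adjusted p = 6.98e-05). The interaction, the LPS/IFNγ effect in efferocytic minus that in naïve Mϕ, was 0.04 (95% interval -0.59 to 0.67). Ctsc did not pass the test for efferocytosis, with an average log2 change of -0.14 (95% interval -0.45 to 0.18). The fold in same-numbered samples ranged from 2.67 to 3.56.

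Of the granule proteases that cathepsin C is known to activate, 2 of 7 were expressed highly enough to be tested, and 0 were called in either direction in any comparison, by limma, edgeR or DESeq2 (0 at an unadjusted p under 0.05). With the replicate number as a block 1 of the 2, Prtn3, was called higher in LPS vs Ctrl (adjusted p = 0.0251) and in the LPS/IFNγ average (log2 change 1.11, limma adjusted p = 0.0187 with the block and 0.189 without it). With the block, 20.5% and 26.2% of all tested genes were called higher in these comparisons. Prtn3, proteinase 3 of neutrophil granules, had 7.06 to 67.3 normalized counts. Ctsg, cathepsin G, had 4.94 to 33.6, and Elane, neutrophil elastase, had 0.578 to 10.3. Gzma and Gzmb, granzymes of cytotoxic lymphocytes, stayed at or below 9.05 and 3.81 normalized counts. Beside this, 4 of 5 tested neutrophil markers were also called higher after LPS/IFNγ (their sums were 694 to 1466 normalized counts in unstimulated and 1743 to 2501 in stimulated samples), and so were 2 of 3 tested dendritic cell markers (median log2 change 1.27) and 5 of 14 tested fibroblast markers (median 1.14). These calls are from the LPS/IFNγ average, where 17.9% of all tested genes were called higher. The naïve Mϕ had received no NIH-3T3 cells, yet 12 of the 14 fibroblast markers had a positive change in LPS vs Ctrl. The means of Lox, Pdgfrb and Fbn1 were 266, 13.4 and 11.7 in Ctrl and 2478, 245 and 144 in LPS. Col3a1 and Dcn had means of at most 4.22 in both groups. The part of neutrophils and dendritic cells in the values of Ctsc and Ctsz was not tested, nor was that of fibroblasts in efferocytic samples.

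Ctsz (ENSMUSG00000016256, chr2:174267304-174280832, minus strand) encodes cathepsin Z, also called X, a carboxypeptidase that also binds integrins. It had 8163 and 9539.8 normalized counts in Ctrl, 12600.1 and 14112 in LPS, 8490.3 and 9089.7 in Eff, with 14378 and 14581 in LPSEff. As for Ctsc, all stimulated samples were above all unstimulated ones. The average log2 change was 0.66 (SE 0.14, 95% interval 0.33 to 0.98, limma adjusted p = 0.00727). With the samples rescaled to equal totals it was 0.23 and not called (adjusted p = 0.159), a scaling under which the median gene fell by 0.42. In naïve Mϕ alone the change of 0.60 (SE 0.20) missed the threshold (adjusted p = 0.0644) and passed it with the replicate number as a block (adjusted p = 0.00895). In this comparison 1 of 10 members was called, Ctsc, and 2 with the block, where 12.4% of tested genes were called higher, 24% in either direction and 20.5% higher with the block. In efferocytic Mϕ the change of Ctsz was 0.72 (SE 0.20, adjusted p = 0.0376), which made 2 of 10 members called, where 10.7% of tested genes were called higher and 19.7% in either direction. The latter call was lost without any of the samples of Ctrl, Eff or LPSEff (adjusted p = 0.0554 to 0.188). Ctsz did not pass for efferocytosis (average 0.06, 95% interval -0.27 to 0.38).

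The remaining 8 members were not called with LPS/IFNγ in any of the 3 comparisons. Ctsd (ENSMUSG00000007891, chr7:141929646-141941775, minus strand) had 67779 and 56939 normalized counts in Ctrl, 54736 and 61239 in LPS, 58341 and 63793 in Eff, with 50394 and 77605 in LPSEff, and the groups overlapped. Its average change was -0.03 with LPS/IFNγ (95% interval -0.52 to 0.46) and 0.04 with efferocytosis (95% interval -0.45 to 0.53). The gene Gm49369 (chr7:141924833-141936404, same strand) shares 38.0% of the exon bases of the canonical Ctsd transcript and had 26919 to 46099 normalized counts, 0.459 to 0.594 per count of Ctsd. The union mode of htseq-count gives no count to a read that lies in both genes, so that the level of Ctsd is uncertain. The log2 change of the sum of both in the LPS/IFNγ average was -0.0015 (limma adjusted p = 0.997, an alternative chosen after seeing the data). In the efferocytosis average the sum kept the direction of Ctsd and was not called.

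Ctsb (ENSMUSG00000021939, chr14:63358384-63383372, plus strand), which also takes part in lysosomal cell death, had 35185 and 32475 normalized counts in Ctrl, 28279.7 and 36518 in LPS, 24844 and 29144 in Eff, with 25579 and 37089.8 in LPSEff. Both Eff samples lay below both Ctrl samples, but LPSEff spanned nearly the whole range. Its average change with LPS/IFNγ was 0.06 (95% interval -0.39 to 0.51) and with efferocytosis -0.20 (95% interval -0.65 to 0.26). Ctsa (ENSMUSG00000017760, chr2:164674778-164682961, plus strand), which stabilises lysosomal sialidase and β-galactosidase, ranged from 3819 to 5925 normalized counts over all 8 samples. It changed by -0.16 on average with LPS/IFNγ (95% interval -0.59 to 0.28) and by -0.05 with efferocytosis (95% interval -0.48 to 0.39). With equal totals the change with LPS/IFNγ became -0.58 and was called (adjusted p = 0.0162), below the shift of the median gene. Under that scaling Ctsb, Ctsf, Ctsh, Ctsl and Ctss turned from positive to negative changes of -0.25 to -0.36, none of them called.

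Efferocytosis left 0 of 10 members called in Eff vs Ctrl, in LPSEff vs LPS and in the average of both, by the main test. At an unadjusted p under 0.05 there was 1 member, Ctsl, in each of the 3, where 1000, 1679 and 2192 of the 16309 tested genes reached it. edgeR on the recovered reads called 0 members in all 3, and DESeq2 called 0, 0 and 1, again Ctsl. Over all tested genes edgeR called 14, 126 and 311, and DESeq2 204, 368 and 644. Few genes were called at all by the main test, with 0.251%, 0.773% and 1.92% of tested genes in either direction. Ctsl and Ctsk had the largest changes of the family. With the replicate number as a block both were called higher in LPSEff vs LPS and in the average, where 4.32% and 6.11% of tested genes were called higher with the block. The median log2 change of the 10 members in the average was -0.05, with a range of -0.21 to 0.95, against -0.01 over all tested genes.

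**Figure D3:**
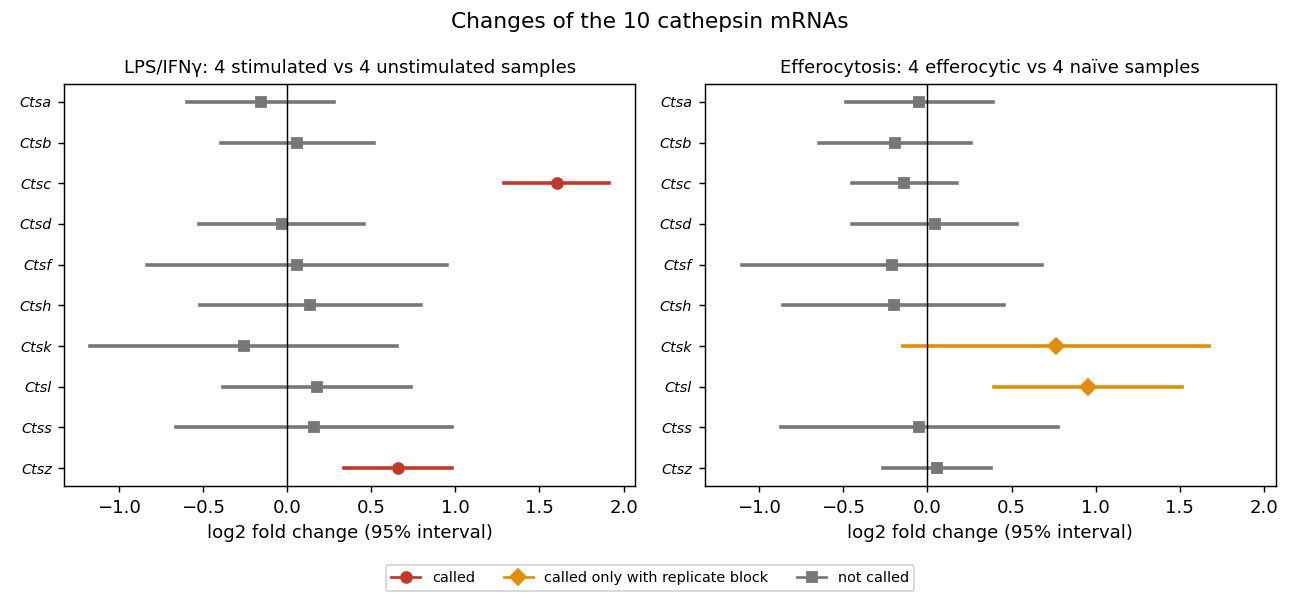
Points give the log2 fold change of each cathepsin and lines its 95% interval (horizontal axis), on the left for LPS/IFNγ and on the right for efferocytosis, each over 4 against 4 samples. Ctsc and Ctsz are called on the left (circles), and Ctsk and Ctsl are called on the right only with the replicate number as a block (diamonds, shown with the interval of the fit without it).

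Ctsl (ENSMUSG00000021477, chr13:64507151-64518704, minus strand) encodes cathepsin L, a strong lysosomal endopeptidase that also processes the invariant chain. It had 4145 and 5000.1 normalized counts in Ctrl, 3521 and 6693 in LPS, 8916 and 7761 in Eff, with 7833 and 12689.9 in LPSEff. All 4 efferocytic samples were above all 4 naïve ones, a pattern shown by 2.83% of tested genes. The log2 change was 0.87 (SE 0.34, limma adjusted p = 0.73) without and 1.04 (SE 0.34, adjusted p = 0.317) with LPS/IFNγ. Its average was 0.95 (SE 0.24, 95% interval 0.39 to 1.51, 1.94-fold, adjusted p = 0.121). Adjusted p-values with the replicate block were 0.0862, 0.0252 and 0.00459 for these 3, and DESeq2 on the recovered reads gave 0.00199 for the average. The gain within same-numbered samples was 2.15-fold and 2.22-fold for replicate 1 (unstimulated and stimulated) and 1.55-fold and 1.90-fold for replicate 2. For LPS/IFNγ the average change of Ctsl was 0.18 (95% interval -0.38 to 0.74). The pseudogene Gm49230 shares 6.69% of the bases of its canonical transcript.

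Ctsk (ENSMUSG00000028111, chr3:95406178-95416732, plus strand) had 368 and 493 normalized counts in Ctrl, 197 and 473 in LPS, 437 and 881 in Eff, with 372 and 979.8 in LPSEff. Efferocytic and naïve samples overlapped, and replicate 2 was 1.34-fold to 2.63-fold above replicate 1 in every group. Within each number, the efferocytic sample was the higher one, by 1.19-fold and 1.89-fold in replicate 1 and by 1.79-fold and 2.07-fold in replicate 2 (unstimulated and stimulated). The log2 change was 0.54 (SE 0.56, adjusted p = 0.999) without and 0.98 (SE 0.56, limma adjusted p = 0.631, with the block 0.0212) with LPS/IFNγ. The average was 0.76 (SE 0.40, 95% interval -0.15 to 1.67, adjusted p = 0.462, with the block 0.00908). Single samples moved these values. The change with LPS/IFNγ present was 0.29 without LPSEff replicate 2, 0.35 without LPS replicate 1, 1.61 without LPS replicate 2 and 1.68 without LPSEff replicate 1. The change without LPS/IFNγ was 0.04 without Eff replicate 2, 0.33 without Ctrl replicate 1 and 1.05 without Eff replicate 1, none of them called. With LPS/IFNγ the average change of Ctsk was -0.26 (95% interval -1.17 to 0.65).

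Most markers of the fibroblasts that had been fed to the Mϕ were higher in efferocytic samples, as were the means of Ctsl and Ctsk. Of 15 fibroblast markers 14 were tested, and 10 were called higher in the efferocytosis average (median log2 change of the 14 tested, 4.06). Of all tested genes, 1.62% were called higher in it. In that average 11 of the 14 changes were positive, and the lowest was -0.46. The sum of the 15 markers was 389 to 507 normalized counts in Ctrl, 2107 to 4191 in LPS, 2294 to 4605 in Eff and 6580 to 7977 in LPSEff. Most of the LPS sum was Lox, lysyl oxidase, with 3620.2 and 1335 normalized counts there. The means of Lox, Pdgfrb and Thy1 were lower in LPSEff (1225, 120 and 43.1) than in LPS (2478, 245 and 63.6). In LPSEff vs LPS 11 of the 14 tested markers had a positive change. Col1a2, a chain of collagen I, had 7.62 and 39.9 in Ctrl, 28.5 and 83.3 in LPS, 582 and 1107 in Eff, with 1913 and 1369 in LPSEff. Dcn, decorin, had at most 5.08 in naïve samples and 21.9 to 198 in efferocytic ones. Of 5 tested neutrophil markers 1, S100a8, was called higher as well (log2 change 1.01, 269 to 573 normalized counts in naïve and 665 to 995 in efferocytic samples), and the 5 had a median change of 0.08 and a lowest of -0.62. Fibroblasts are known to express Ctsl and Ctsk, and the part of their RNA in both values was not tested.

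**Figure D4:**
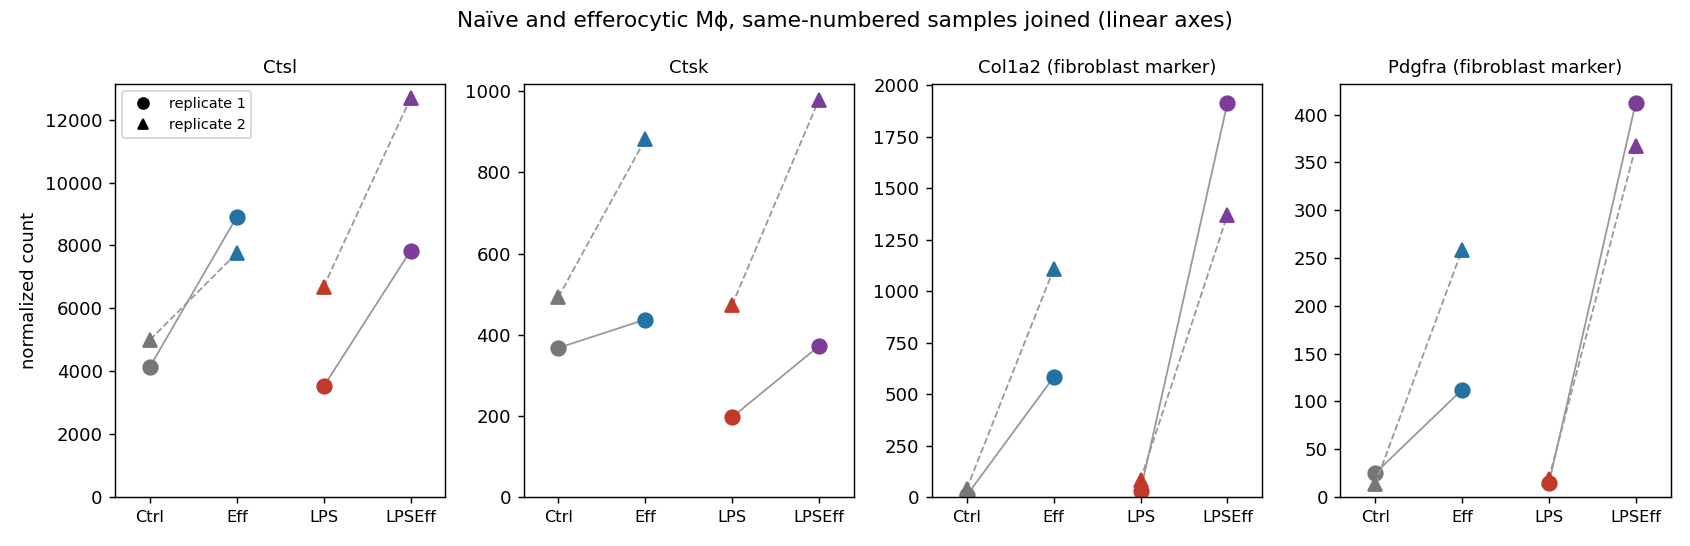
Normalized counts (linear vertical axes from 0) of Ctsl, Ctsk and the fibroblast markers Col1a2 and Pdgfra in naïve and efferocytic Mϕ, with lines joining samples of the same replicate number (circles and full lines for 1, triangles and dashed lines for 2). All lines rise from the naïve to the efferocytic sample in all 4 panels, and both markers are at most 83.3 in Ctrl and LPS.

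Ctss (ENSMUSG00000038642, chr3:95433963-95463717, plus strand), which removes the invariant chain from MHC class II, is the neighbour of Ctsk on chromosome 3. It had 16227 and 22824 normalized counts in Ctrl, 13415 and 27716 in LPS, 12228 and 22846 in Eff, with 13801 and 31246 in LPSEff. Ctsh (ENSMUSG00000032359, chr9:89936205-89958148, plus strand), an aminopeptidase among the cathepsins, had 1554 and 2231 in Ctrl, 1442 and 2738 in LPS, 1206 and 2047 in Eff, with 1371 and 2319 in LPSEff. For both genes all 4 samples of replicate 2 were above all 4 of replicate 1, whatever the treatment. The excess of replicate 2 was 1.41-fold to 2.26-fold for Ctss and 1.44-fold to 1.90-fold for Ctsh. In neither gene was a treatment called, with average changes of 0.16 (95% interval -0.66 to 0.98) and 0.14 (95% interval -0.52 to 0.79) for LPS/IFNγ and of -0.05 (95% interval -0.87 to 0.77) and -0.20 (95% interval -0.86 to 0.46) for efferocytosis.

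Ctsf (ENSMUSG00000083282, chr19:4905118-4915986, plus strand) was the scarcest member and had 80.0 and 83.9 normalized counts in Ctrl, 55.6 and 92.4 in LPS, 42.9 and 81.9 in Eff, with 41.2 and 131 in LPSEff. Its average changes were 0.06 with LPS/IFNγ (95% interval -0.83 to 0.95) and -0.21 with efferocytosis (95% interval -1.10 to 0.68), and neither was called. Replicate 2 was the higher sample in all 4 groups for Ctsa and Ctsf too, by 1.06-fold to 1.53-fold and 1.05-fold to 3.18-fold. The replicates were closer for Ctsc and Ctsz, with ratios of replicate 2 to replicate 1 of 0.876 to 1.17 and of 1.01 to 1.17. Ctsz was thus also higher in replicate 2 in all 4 groups, by less. The genes of MHC class II differed between the replicates in the same way as Ctss, with 2.41-fold to 3.47-fold more H2-Aa and 2.07-fold to 2.57-fold more Cd74, the invariant chain, in replicate 2. The dendritic cell markers Flt3, Zbtb46 and Xcr1 were also above replicate 1 in all 4 groups, by 1.27-fold to 5.34-fold. Their part in the difference between the replicates was not tested.

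Both LPS/IFNγ effects were compared directly as an interaction. None of the 10 members was called, nor was any other tested gene (0%), and at an unadjusted p under 0.05 there were 0 members and 311 genes. edgeR, DESeq2 and the fit with the block called 0 genes as well. The intervals of the interaction were wide for most members, from -1.38 to 2.26 on the log2 scale for Ctsk and from -0.52 to 0.77 for Ctsz, so that differences between naïve and efferocytic Mϕ of moderate size were not detectable here.

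Of 12 tested endogenous inhibitors of cathepsins (13 listed), 6 were called higher and 0 lower in the LPS/IFNγ average, with a median log2 change of 0.96. With the block 9 were called higher. Of all tested genes, 17.9% were called higher and 18.6% lower in this average, and with the block 26.2% higher, 26.5% lower and 52.7% in either direction. These shares are also the background for the lists that follow. Serpina3g, a serpin that inhibits cysteine cathepsins, had 99.0 and 145 normalized counts in Ctrl, 1455 and 2744 in LPS, 19.3 and 31.8 in Eff, with 1060.1 and 772 in LPSEff. It rose by 4.59 with LPS/IFNγ (SE 0.26, limma adjusted p = 9.64e-06) and fell by 1.68 with efferocytosis (SE 0.26, adjusted p = 0.0186). Stfa3, a stefin, rose with both, by 1.82 and 1.51 (SE 0.22 each). Cst7, cystatin F, which is known to act on cathepsin C, rose by 1.73 (SE 0.23), and Ctla2b, whose sequence resembles a cathepsin propeptide, by 1.54 (SE 0.27). Ctla2a, its close relative, rose by 1.50 (SE 0.26) with efferocytosis, from 9.52 to 24.6 normalized counts in naïve to 30.7 to 55.8 in efferocytic samples. In that average 2 inhibitors were called higher and 1 lower, and 4 and 1 with the block, where 1.62% of all tested genes were called higher and 0.3% lower, with 6.11% and 5.2% under the block. Stefins and Ctla2 genes have near-identical copies between which reads can be split, so that their levels are uncertain. Cst3, cystatin C, the most abundant inhibitor with 5536 to 22861 normalized counts, was called only with the block (log2 change 0.87). With equal totals, changes with LPS/IFNγ lie about 0.42 lower for a typical gene.

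**Figure D5:**
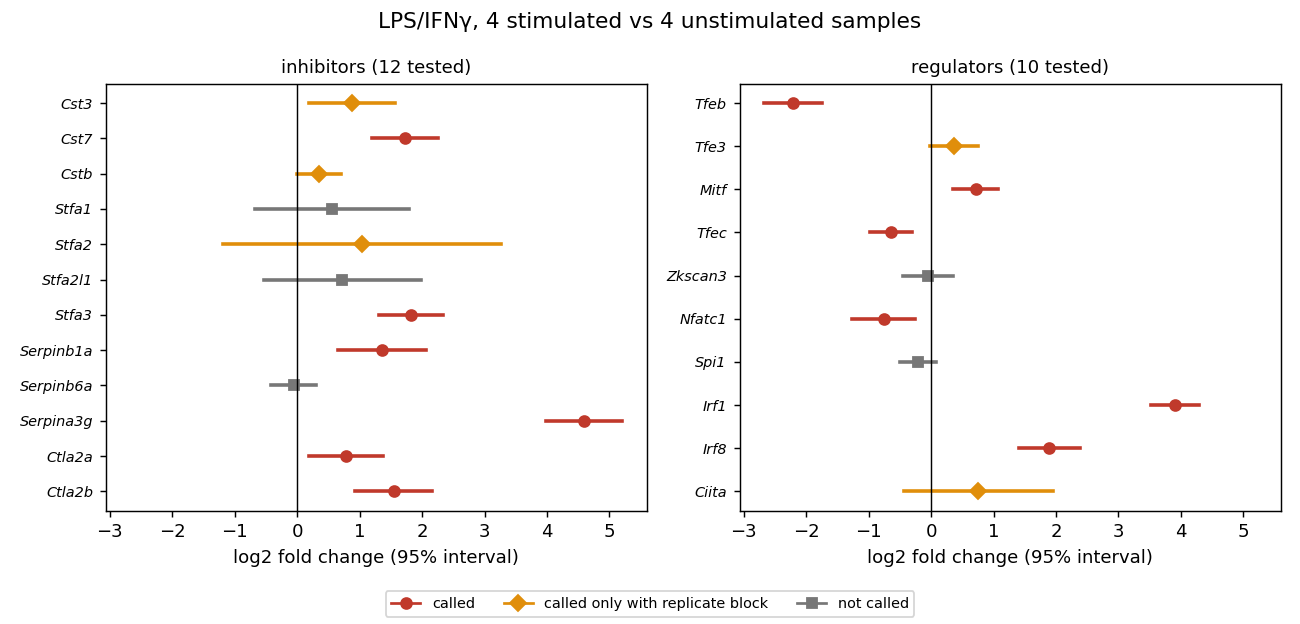
Points give the log2 fold change with LPS/IFNγ (4 stimulated against 4 unstimulated samples) and lines the 95% interval, on the left for 12 cathepsin inhibitors and on the right for 10 transcriptional regulators. Serpina3g and Irf1 lie farthest to the right and Tfeb farthest to the left, and circles mark called genes, diamonds those called only with the replicate number as a block.

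Of 10 regulators, 3 were called higher and 3 lower in the LPS/IFNγ average (median log2 change 0.16), and 5 and 3 with the block. Tfeb, the regulator of lysosomal genes, had 439.9 and 278 normalized counts in Ctrl, 64.7 and 86.3 in LPS, 306 and 239.9 in Eff, with 58.6 and 57.1 in LPSEff. It fell by 2.21 (SE 0.20, limma adjusted p = 0.000102). Of its relatives, Mitf rose by 0.71 (SE 0.16, adjusted p = 0.00785), and Tfe3 had a change of 0.36 (SE 0.17, adjusted p = 0.131, with the block 0.00994). Tfec, a further relative, was lower after LPS/IFNγ, with every stimulated sample below every unstimulated one. It had 1142.5 and 835 normalized counts in Ctrl, 598 and 667 in LPS, 1128 and 996 in Eff, with 633 and 715 in LPSEff. Nfatc1, which drives Ctsk in osteoclasts, fell by 0.76 (SE 0.22) on average. Its normalized counts were 316 and 356 in Ctrl, 195 and 346 in LPS, 344 and 351 in Eff, with 124 and 194 in LPSEff. The samples of Ctrl and LPS overlapped. Irf1 and Irf8, interferon regulatory factors, rose by 3.90 (SE 0.17) and 1.89 (SE 0.21). With efferocytosis 0 regulators were called by limma, edgeR or DESeq2, 2 had an unadjusted p under 0.05, and 2 (Irf1 and Ciita) were called lower with the block.

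Of 14 genes of sorting and activation, 1 was called higher and 1 lower with LPS/IFNγ (median -0.06), and 2 higher and 3 lower with the block. With efferocytosis 0 were called by limma, edgeR or DESeq2 or at an unadjusted p under 0.05. M6pr, the cation-dependent mannose 6-phosphate receptor, rose by 1.09 (SE 0.16), from 1310.1 to 1613 normalized counts in unstimulated to 2536 to 3896 in stimulated samples. Nagpa, which uncovers the mannose 6-phosphate tag, fell by 0.69 (SE 0.15). Lgmn, legumain, which cleaves cathepsins to their 2-chain forms, ranged from 2119 to 3848 normalized counts and was not called.

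A further list held 12 genes of antigen processing and endosomal receptors. Ctss, Ctsl and Ctsf are known to act on some of their products. With LPS/IFNγ 5 of the 12 were called higher and 0 lower (median 1.06), against 17.9% of all tested genes called higher. With the block 10 were called higher, against 26.2%. With efferocytosis limma called 0 (1 at an unadjusted p under 0.05, 0 by edgeR, 1 by DESeq2), and 5 lower with the block, against 5.2% of all tested genes. Tlr3 and Tlr9, endosomal Toll-like receptors, rose by 2.83 (SE 0.18) and 1.79 (SE 0.32), Unc93b1, the chaperone of these receptors, by 0.70 (SE 0.16), and Cd74 by 1.31 (SE 0.43). Ctss, with its own changes given above, was not called in the same comparison. Of 6 tested genes of the osteoclast type (8 listed), Mmp9, gelatinase B, was called with both treatments, by 1.72 (SE 0.26) for LPS/IFNγ and by 1.92 (SE 0.26) for efferocytosis, and had 243 and 299.5 normalized counts in LPSEff against 17.3 to 64.7 in all other samples. Acp5 rose by 0.93 (SE 0.19) and Atp6v0d2 fell by 1.47 (SE 0.41) with LPS/IFNγ. Mmp9 was the only gene of the 6 called with efferocytosis, and Dcstamp was called lower with the block (log2 change -0.52).

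Of 35 other hydrolases of the lysosome, 3 were called higher and 5 lower with LPS/IFNγ (median -0.10), and 4 higher and 9 lower with the block. The shares over all tested genes were 17.9% and 18.6%, and 26.2% and 26.5% with the block. With efferocytosis 0 were called by limma, edgeR or DESeq2, 3 had an unadjusted p under 0.05, and 2 were called lower with the block. Sgsh, a heparan sulfate sulfatase, fell by 2.55 (SE 0.23), from 121 to 150.4 normalized counts in unstimulated to 14.2 to 29.2 in stimulated samples. Pla2g15, Manba and Dnase2a fell by 1.45 (SE 0.19), 1.35 (SE 0.19) and 1.22 (SE 0.16). Of 13 further cathepsin genes, 3 could be tested, and 0 were called in any comparison by limma, edgeR or DESeq2 or at an unadjusted p under 0.05. Ctso was the most abundant of these, with 101 to 207 normalized counts.

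The genes whose pattern over the 8 samples was most like that of each member were found by the root mean square difference of centred log2 values. The median of this difference over all tested genes was 0.491 to 0.932 for the 10 members. For Ctsc these were Spryd7 (0.0909) and N4bp1 (0.0994), for Ctsz Stx2 (0.0495) and Fam174a (0.0621), for Ctsl Ears2 (0.227) and Clec4n (0.243), and for Ctss Pld3 (0.117), a lysosomal nuclease, and Wdr44 (0.127). For Ctsk they were Gm43310 (0.139) and Gm6064 (0.232), whose means of 10.4 and 21.7 normalized counts lie near the filter of 10. Ctsb was closest to Dnajc10 (0.0601) and Yod1 (0.0808), Ctsa to Ssb (0.0653) and Man2b2 (0.0672), a lysosomal mannosidase, Ctsh to Hltf (0.0872) and Aplp2 (0.0887), Ctsd to Gm49339 (0.0791) and Lilrb4a (0.0867), and Ctsf to BC028528 (0.174) and Gm20167 (0.179). These points share their libraries and size factors, and the likeness is a description.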

How the data were processed

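RNA of 8 BMDM samples (4 groups, 2 samples each) was depleted of rRNA and sequenced as single-end reads. As the methods state, the authors used cutadapt for adapters, bowtie2 to take out remaining rRNA, STAR with mm39 for mapping, htseq-count (default settings) for counting and DESeq2 for their comparisons. The source of the size factors is not given in the sources used here. Tool versions and the annotation release are not given in the sources used here. The deposited values are a signal, the normalized count, that is the read count divided by a size factor per sample. All values (100%) were whole multiples of the worth of 1 read within a tolerance of 0.02, which gave recovered reads of 3481288 to 12020918 per sample (median 8431112.5), and the depth of 3 reads covers counting error only. Symbols came from the GENCODE annotation of GRCm39, which held 54749 of 55359 identifiers.

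The values, as log2(normalized count + 1), were tested with limma 3.58.1 and its trend option (R 4.3.3) for the 16309 genes whose mean reached 10 normalized counts. All 4 group means shared a single fit (4 residual degrees of freedom) and p-values were adjusted after Benjamini and Hochberg within a contrast. A gene was called at an adjusted p under 0.05. The contrasts were both LPS/IFNγ effects, both efferocytosis effects, the average of each (4 against 4 samples) and the interaction. With 2 samples per group, these p-values rest on the spread that the tools share across genes. The script was tested on simulated data with changes in LPS only and no effect of the replicate number. That test covered LPS vs Ctrl and says nothing on the block, the averages or the interaction. Whether samples of the same number share a preparation is not stated in the labels, but they deviated from their group means together, with correlations of 0.404 to 0.595 over the 16309 genes in all 6 pairs of groups, so that the number was taken as a pairing, and a fit with it as a block (3 residual degrees of freedom) was the alternative. Other alternatives were edgeR (4.0.16) and DESeq2 (1.42.0) on recovered reads, equal totals, other filters and pseudocounts, only the groups compared, and leaving out each sample.

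The 10 members were given, and from each supporting list up to 4 called genes with the largest change were named, besides genes singled out after their values were seen (such as Lgmn, Cst3, Ctso and the granule proteases). Dcstamp, Irf1, Ciita and Prtn3 are named for their calls with the block, and Mitf, Tfe3 and Tfec as relatives of Tfeb. Members and lists were chosen with earlier results of these data known. Some genes stand in more than 1 list. Levels between genes were compared per kilobase of the canonical transcript.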

Additional observations from a re-analysis of the deposited data

How the results depend on the processing

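The reported changes of the members were recomputed under each alternative, 630 values of 36 results in all, of which 553 kept direction and side of the threshold, 52 changed sign, 15 newly passed and 10 no longer passed. Many of the 630 could not change sign. The other filters, the limma block and the fit of only the groups compared leave a log2 change as it is. So does leaving out a sample from a group outside the contrast. Ctsc remained called in all 3 LPS/IFNγ comparisons under every alternative run. In LPS vs Ctrl, 2 members instead of 1 were called with the replicate block, with edgeR (with or without the block), with DESeq2 and with a mean of at least 50 as filter. In LPSEff vs Eff, 1 member instead of 2 was called with no filter, with equal totals and with only the groups compared, and 1 to 2 when leaving out a sample. With the replicate block (limma or edgeR), 2 members instead of 0 were called in LPSEff vs LPS and in the efferocytosis average, where DESeq2 called 1. The block changed no other call of a member. Over all genes it moved the count of calls from 3910 to 6717 in LPS vs Ctrl, 3213 to 6033 in LPSEff vs Eff, 41 to 436 in Eff vs Ctrl, 126 to 1137 in LPSEff vs LPS, and 313 to 1845 in the efferocytosis average. DESeq2 called 204, 368 and 644 in the last 3, and edgeR called 14 in Eff vs Ctrl.

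Equal totals turned the LPS/IFNγ average of Ctsb (-0.36), Ctsf (-0.36), Ctsh (-0.29), Ctsl (-0.25) and Ctss (-0.27), the changes of Ctsl in LPS vs Ctrl (-0.31) and LPSEff vs Eff (-0.19), and that of Ctsz in Eff vs Ctrl (0.0057). edgeR, edgeR with the block and DESeq2 turned Ctsk in LPSEff vs Eff (0.0586, 0.0104 and 0.0562) and Ctsd in the LPS/IFNγ average (0.0074, 0.0017 and 0.0069). None of these changes was called under either setting. Leaving out a sample turned some changes that were not called. The ranges were in the efferocytosis average Ctsa -0.20 to 0.11, Ctsd -0.11 to 0.20, Ctsf -0.62 to 0.20, Ctsh -0.43 to 0.0306, Ctss -0.34 to 0.25, Ctsz -7.3e-05 to 0.11, in the LPS/IFNγ average Ctsb -0.0730 to 0.19, Ctsd -0.19 to 0.12, Ctsf -0.35 to 0.47, Ctsh -0.0928 to 0.37, Ctsk -0.61 to 0.0893, Ctsl -0.0548 to 0.41, Ctss -0.14 to 0.45, in LPS vs Ctrl Ctsk -1.11 to 0.15, Ctsl -0.37 to 0.56, in LPSEff vs Eff Ctsk -0.74 to 0.66, Ctsl -0.0867 to 0.61, in Eff vs Ctrl Ctsz -0.12 to 0.11. Each member except Ctsf (at least 42) had at least 152 reads in every sample.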
